A study of Homo sapiens with 3 samples.

Results

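The fibroblast growth factor (FGF) genes examined here are the FGF ligands and their intracellular relatives, the receptors FGFR1 to FGFR4, the feedback inhibitors of the Sprouty and SPRED families with the phosphatase DUSP6, and the ETS transcription factors ETV1, ETV4 and ETV5. They were chosen by exact gene symbol among the array's probe sets, groups of short oligonucleotides that each report on 1 transcript region. A probe set had to carry only that symbol. In all, 96 of 54675 probe sets qualified, for 37 of 19775 genes: 15 paracrine ligands, 3 endocrine ligands, 4 intracellular homologous factors, 4 receptors, 8 inhibitors and 3 transcription factors. The cells came from H9, an established human embryonic stem cell line, taken through embryoid bodies after removal from mouse feeder cells. Neuroepithelial cells were collected at day 17, and no morphogen is listed for them. Astrocytes were collected at day 210 from cultures given either retinoic acid (RA), which patterns neural tissue caudally, or FGF8 from day 10 to day 21, so the treatment ended long before collection. Each group was a single array of total RNA and all 3 groups share the line. No difference below therefore has a replicate check or a test, and precision is limited by having so few arrays.

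FGF ligands bind receptor tyrosine kinases together with heparan sulphate chains on the cell surface. The receptors pass the signal through adaptors to RAS and the MAP kinases, which induce ETV transcription factors and also the inhibitors that switch the pathway off again. In the developing brain FGF signals keep neural progenitors dividing, pattern the head-to-tail axis and promote the change from making neurons to making glia, and FGFR3 is a known gene of radial glia and astrocytes.

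Signals are intensities after quantile normalization, which gives all arrays the same distribution. Values under 26.4, the median over all non-control probe sets, were raised to that floor. Where 1 of the arrays compared is at the floor the fold is a lower bound, written with the words at least; where both are, none is given. A gene was called higher or lower at 2-fold or more, on the probe set that stands for it (the one with the highest mean signal, leaving out the cross-matching _x_at type where another exists). The labelled cell types were set against their markers. Of the astrocyte markers, 9 of 9 were above the floor on both astrocyte arrays, with summed signals of 45697 (RA) and 37917 (FGF8). The neuroepithelial array had 7643, of which GJA1 alone gave 6880, and GFAP, AQP4 and S100B lay at the floor there. GFAP, AQP4, S100B, SLC1A3, SLC1A2, CD44 and NFIA were over 2-fold higher in both astrocyte arrays. ALDH1L1, at 38, 45.6 and 43.4, and GJA1, at 6880, 8920 and 7980, stayed within 2-fold (order neuroepithelial, RA, FGF8). The 8 neuroepithelial markers summed to 18862 in neuroepithelial cells, 1392 in RA astrocytes and 2652 in FGF8 astrocytes. The 5 cycling-cell markers summed to 10363, 1084 and 6617 in the same order, and 9 neuron markers to 7956, 3493 and 9236. Of the neuron sum in the FGF8 array DCX alone gave 6760, while STMN2 and RBFOX3 lay at the floor there. The 7 oligodendrocyte lineage markers summed to 379, 1100 and 6497. PDGFRA alone gave 6040 of that sum in the FGF8 array, while SOX10 and MOG lay at the floor there and in the RA array. Of 6 mesenchymal markers, all were above the floor in the neuroepithelial array (sum 7661), 1 in RA astrocytes (sum 92) and 2 in FGF8 astrocytes (sum 391). For ACTB the ratio of the 3' to the 5' probe set was 1.33 for neuroepithelial cells, 6.67 for RA and 6.63 for FGF8 astrocytes, and for GAPDH it was 0.984, 1.79 and 1.65. Spike-in controls had a geometric mean deposited intensity of 1250, 3280 and 1360. The part of these markers and controls in the differences below was not tested. In bulk RNA, fewer cells of a type and less RNA per cell cannot be told apart.

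Of the 37 genes, 23 were above the floor on at least 1 array and 16 on all 3. Of the other 14, FGF3, FGF4, FGF5, FGF7, FGF8, FGF10, FGF16, FGF20, FGF21, FGF22, FGF23, FGFR4, SPRY3 and ETV4, none was above it on the probe set that stands for the gene. RA astrocytes had 5 of 23 genes compared at least 2-fold higher than neuroepithelial cells, beside 18.1% of all 13339 genes compared, and 7 lower, beside 14.6% (either way 32.7% of all genes). FGF8 astrocytes had 5 of 22 higher, beside 12.8% of 13004 genes, and 5 lower, beside 10.2% (either way 23.1%). Between the astrocyte arrays 5 of 19 were higher in RA, beside 9.68% of 12959 genes, and 3 were lower, beside 7.86% (either way 17.5%). These counts cover only genes above the floor on an array compared and describe these libraries. The median log2 difference of the members was -0.16 in RA minus neuroepithelial, -0.09 in FGF8 minus neuroepithelial and 0.32 in RA minus FGF8, beside 0.07, 0.05 and 0.01 over all genes. With array medians set equal the first pair became 0.24 and 0.28, beside 0.35 and 0.42 over all genes, and among all genes past 2-fold the share that was higher went from 55.4% to 70.8% in RA astrocytes and from 55.6% to 75.8% in FGF8 astrocytes. The comparisons with neuroepithelial cells share that array.

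**Figure D1:**
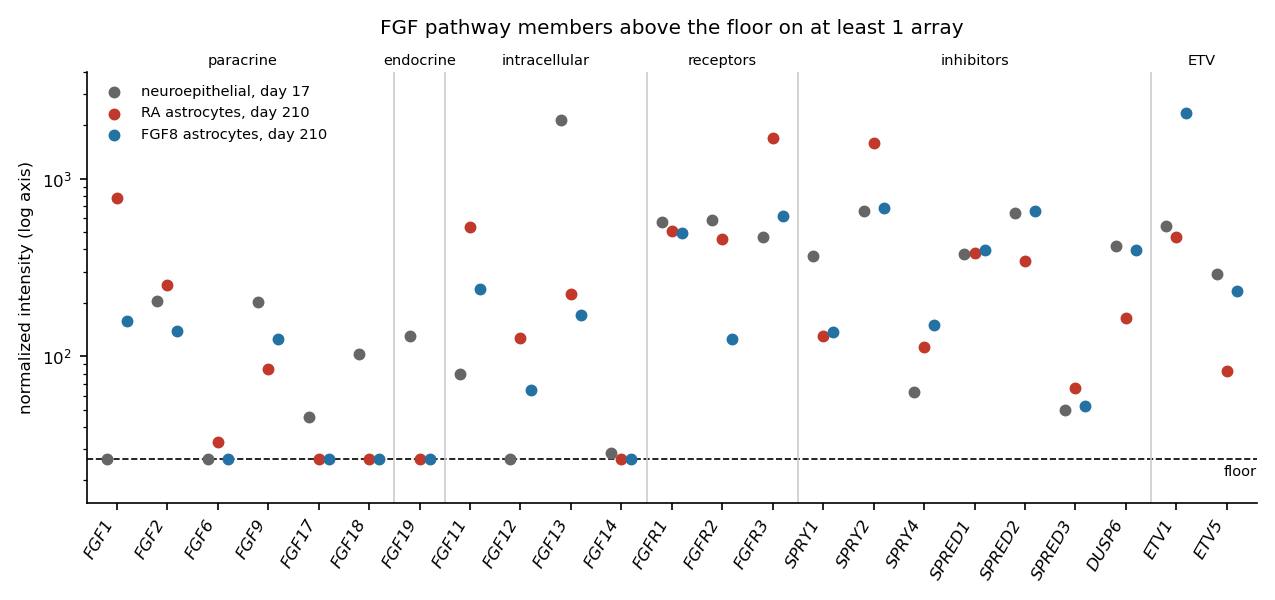
Normalized intensity (log axis) of the 23 member genes above the floor on at least 1 array, 1 point per array, with the floor of 26.4 as a dashed line and the roles named along the top. FGF1 and FGF12 leave the floor only in the astrocyte arrays, FGF17, FGF18 and FGF19 only in the neuroepithelial array, and ETV1 stands at 2340 in the FGF8 array.

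Among the secreted paracrine ligands, FGF1 was the gene with the widest gap between the cultures. FGF1, an acidic FGF that binds every FGF receptor and is made by astrocytes and neurons in the adult brain, was at the floor in neuroepithelial cells, at 776 in RA astrocytes and at 158 in FGF8 astrocytes. The RA culture was high, the FGF8 culture intermediate, and the neuroepithelial culture had no signal above the floor. Against neuroepithelial cells FGF1 was thus higher by at least 29.4-fold in RA and by at least 6-fold in FGF8 astrocytes, and 4.91-fold higher in RA than in FGF8 astrocytes. Of 13339 genes compared, 69 had a larger difference upward in RA minus neuroepithelial with bounds taken at their bound. Its other probe sets read at the floor, 236 and 49.4, and at the floor, 63.3 and at the floor, in the order neuroepithelial, RA, FGF8. All 3 therefore read above the floor in the RA array and at it in the neuroepithelial array, and all 3 were at least 2-fold higher in RA than in FGF8 astrocytes. With the floor at the 70th percentile the bound on FGF8 minus neuroepithelial was 0.73 on the log2 scale and no longer reached 2-fold.

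The stretch of 250 bases before a start of FGF1 in RefSeq, 1 of 4 starts listed for the gene, is shown because FGF1 had the largest difference among the members; this start was picked of the 4 for its motif match, and the arrays do not say which start was used. It lies at chr5:142644240-142644489 on the minus strand of GRCh38.p14. Capitals mark the match to the AP-1 motif, the site of FOS and JUN proteins, searched as TGANTCA, which reads the same on both strands.
FGF1: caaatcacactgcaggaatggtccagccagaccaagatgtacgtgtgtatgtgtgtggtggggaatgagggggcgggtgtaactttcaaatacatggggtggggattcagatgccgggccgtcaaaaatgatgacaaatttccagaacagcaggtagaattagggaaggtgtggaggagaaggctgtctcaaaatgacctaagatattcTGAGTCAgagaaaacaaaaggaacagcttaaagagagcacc
The match begins 41 bases before the start. AP-1 letters were present in 6.57% of all 35116 such stretches in RefSeq. They were in 4 of the 57 stretches listed for 27 member genes, or 7.02%, those of FGF1, FGF13, SPRED3 and SPRY3. FOS, which binds this motif with JUN, read 62.5 in neuroepithelial cells, 1630 in RA astrocytes and 1820 in FGF8 astrocytes. Between the astrocyte cultures it differed by 1.12-fold. The part of FOS or of this motif in the FGF1 differences was not tested.

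FGF2, the basic FGF used to expand neural progenitors, read 206 in neuroepithelial cells, 253 in RA astrocytes and 139 in FGF8 astrocytes, and stayed within 2-fold in every comparison. Its other probe set read 81.8, 61.3 and 61.6. FGF9, a ligand of FGFR2 and FGFR3 made by neurons and glia, read 203, 85.1 and 126. It was 2.38-fold lower in RA astrocytes than in neuroepithelial cells, and its other probe set was 2.07-fold lower; with array medians set equal the log2 difference was -0.99, just inside 2-fold. In the FGF8 array its log2 difference from neuroepithelial cells was -0.68. FGF6, a muscle ligand, read 32.9 in the RA array only, close to the floor.

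FGF17, FGF18 and the endocrine ligand FGF19 were above the floor only in neuroepithelial cells, on the probe sets that stand for them. FGF18, which shares a subfamily with FGF8 and FGF17, read 103 in the neuroepithelial array and lay at the floor in both astrocyte arrays, at least 3.9-fold lower. FGF17 read 45.7 and was also at the floor in both, a bound of 1.73-fold, which reached 2-fold (a bound of -1.03) on the deposited values without further scaling. FGF19, a hormone-like ligand that is also expressed in the embryonic brain, read 131 and was at least 4.96-fold lower in both astrocyte cultures. Of the 6 FGF18 probe sets 1 carried that signal; another was above the floor in neuroepithelial cells only, at 33.4, and another read 28.5 in RA astrocytes only. With the floor at the 70th percentile the bounds of FGF18 and FGF19 shrank to -0.11 and -0.46 in both comparisons and no longer reached 2-fold. Transcripts of FGF8 itself were at the floor on all 3 arrays, the cultures given FGF8 protein included.

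The intracellular FGF homologous factors are not secreted and do not signal through the receptors; they bind voltage-gated sodium channels, and FGF13 also binds microtubules in young neurons. FGF13 read 2150 in neuroepithelial cells, 225 in RA astrocytes and 170 in FGF8 astrocytes. Both astrocyte cultures were low, 9.57-fold and 12.7-fold below neuroepithelial cells, and within 2-fold of each other at 0.41. In FGF8 minus neuroepithelial 110 of 13004 genes lay further down. The neuron marker STMN2 read 2240 in neuroepithelial cells, 153 in RA astrocytes and the floor in FGF8 astrocytes. In that order DCX read 2060, 582 and 6760. Other markers of that list were mixed, with SYT1 at 631, 2060 and 405, NEFL at 1180, 328 and 1450, and SNAP25 at 93.5, the floor and 119. NEFM read 711, 184 and 134, ELAVL4 425, 37.4 and 99.9, and INA 595, 129 and 242. RBFOX3 read 28.1 in neuroepithelial cells and the floor in both astrocyte arrays. The part of neurons in the FGF13 difference was not tested. FGF11 went the other way from FGF13, at 79.7, 538 and 239. It was 6.74-fold higher in RA and 3-fold higher in FGF8 astrocytes than in neuroepithelial cells. Between the astrocyte cultures it was 2.25-fold higher in RA. Its other probe set was at the floor on all 3 arrays, and with the mean of both probe sets these differences were 0.82, 0.17 and 0.64 on the log2 scale.

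FGF12 was at the floor in neuroepithelial cells, at 127 in RA astrocytes and at 64.9 in FGF8 astrocytes, at least 4.8-fold and at least 2.46-fold higher. A second of its 3 probe sets read 76.1 and 47.7 in the astrocyte arrays and was at the floor in neuroepithelial cells. With the floor at the 70th percentile the RA difference was a bound of 0.41, which does not reach 2-fold, and the FGF8 difference had no value. RA minus FGF8 was 0.96, and 1.23 with the mean of all 3 probe sets. FGF14 read 28.6 in the neuroepithelial array and was at the floor in the others, a bound of -0.12, and its other probe sets read at most 34 on any array. With the lower floor RA minus neuroepithelial passed 2-fold. In this family FGF11 and FGF12 were thus higher and FGF13 lower in both astrocyte cultures, also under both other scalings.

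**Figure D2:**
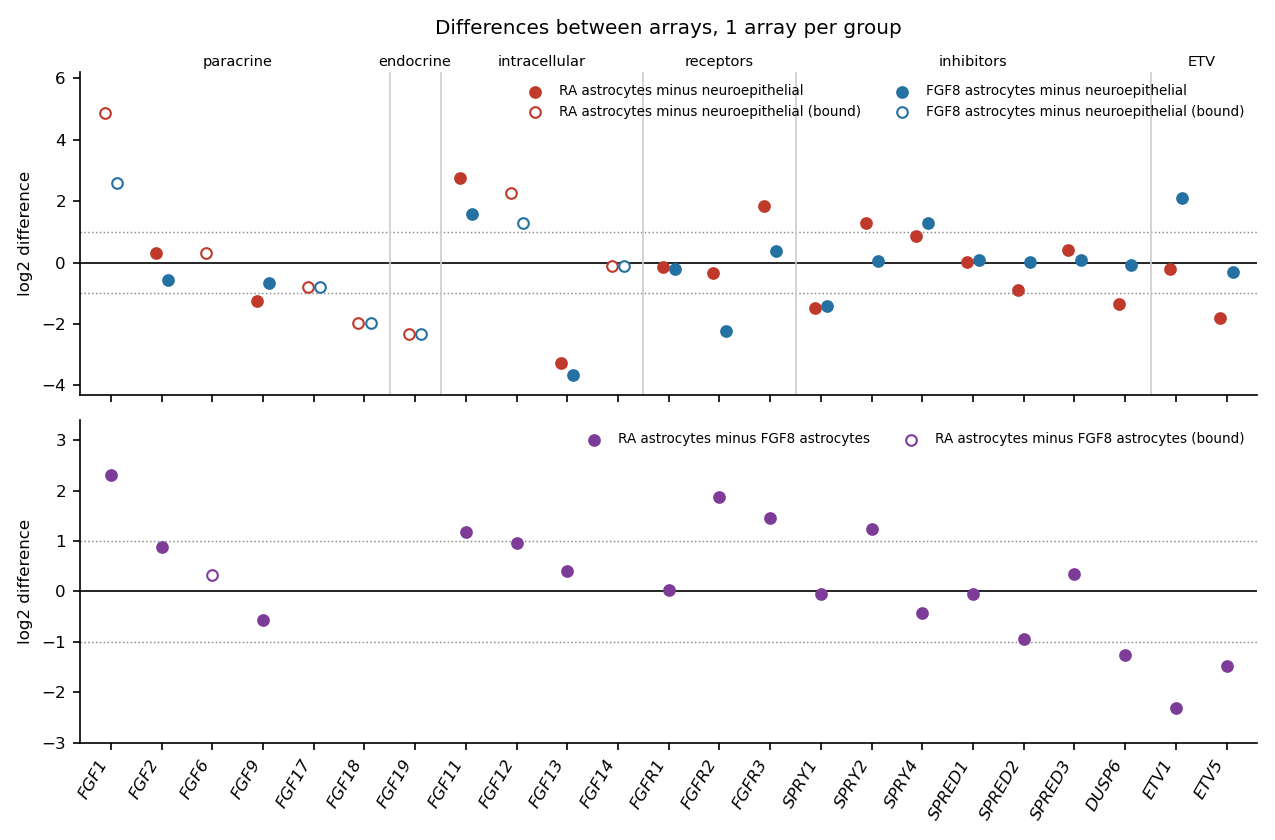
Log2 differences of the 23 member genes: top, RA (red) and FGF8 (blue) astrocytes minus neuroepithelial cells; bottom, RA minus FGF8 astrocytes, with dotted lines at 2-fold and open points for lower bounds. FGF1 reaches at least 4.88 in RA minus neuroepithelial, FGF13 lies at -3.26 and -3.67, and the bottom panel runs from 2.30 for FGF1 to -2.31 for ETV1.

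Among the receptors FGFR1 differed least between the cultures, FGFR2 was lower in FGF8 astrocytes and FGFR3 was higher in RA astrocytes. FGFR1, the main receptor of neural progenitors, read 570 in neuroepithelial cells, 509 in RA astrocytes and 498 in FGF8 astrocytes, with log2 differences of -0.16, -0.20 and 0.03. All 7 of its probe sets were above the floor on all 3 arrays, and they spread from -1.06 to 0.59 in RA minus neuroepithelial and from -0.95 to 0.44 in FGF8 minus neuroepithelial, so probe sets of this receptor disagreed in direction.

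FGFR2, a receptor of progenitors and of oligodendrocytes, read 586, 461 and 126. It was 4.64-fold lower in FGF8 astrocytes than in neuroepithelial cells and 3.65-fold higher in RA than in FGF8 astrocytes, while RA astrocytes and neuroepithelial cells lay within 2-fold. Of its 11 probe sets 5 were above the floor on some array. Of these, 4 were at least 2-fold lower in FGF8 astrocytes than in neuroepithelial cells (between -1.93 and -2.33, bounds included), and the remaining one, whose signals of 36.4 and 41.2 in the astrocyte arrays lie near the floor that it read in neuroepithelial cells, was higher in FGF8 astrocytes by at least 0.64 on the log2 scale. That last probe set stands for the gene where the less specific types (_s_at and _x_at) are left out, and it then reads at least 0.64 in FGF8 minus neuroepithelial and -0.18 in RA minus FGF8. The oligodendrocyte lineage marker PDGFRA read 173, 793 and 6040 in the order neuroepithelial, RA, FGF8, opposite in direction to FGFR2. Other markers of that list did not all follow it. OLIG1 read 92.5, 178 and 308, and OLIG2 60.3, 64.6 and 106. SOX10 was above the floor only in neuroepithelial cells, at 32.9. CSPG4 and MBP were above it only in RA astrocytes, at 26.6 and 30.9, and MOG on no array. The part of oligodendrocyte lineage cells in the FGFR2 differences was not tested.

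FGFR3, the receptor of radial glia and astrocytes, read 472 in neuroepithelial cells, 1700 in RA astrocytes and 619 in FGF8 astrocytes. The RA culture was high, 3.61-fold above neuroepithelial cells and 2.76-fold above FGF8 astrocytes, and the FGF8 culture lay within 2-fold of neuroepithelial cells at 0.39. A second probe set read 36.2 and 27.8 in neuroepithelial and RA cells and was at the floor in FGF8 cells; with the mean of both, RA minus neuroepithelial was 0.73. The main FGFR4 probe set was at the floor throughout; of 4 in all, 1 read 43 in neuroepithelial cells only.

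The 250 bases before the FGFR3 start are shown because FGFR3, like FGFR2, was higher in RA than in FGF8 astrocytes and has 1 start listed; they lie at chr4:1793043-1793292 on the plus strand of GRCh38.p14. Capitals mark matches to the GC box, the site of SP1-type factors, searched on both strands as GGGCGGGG.
FGFR3: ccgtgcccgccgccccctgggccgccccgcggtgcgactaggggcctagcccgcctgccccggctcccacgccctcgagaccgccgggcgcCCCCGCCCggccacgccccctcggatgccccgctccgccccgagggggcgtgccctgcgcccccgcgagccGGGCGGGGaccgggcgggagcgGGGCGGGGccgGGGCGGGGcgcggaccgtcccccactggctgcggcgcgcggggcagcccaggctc
It holds 4 matches, 3 on the gene's strand and 1 on the other, in a stretch that is 86.8% G and C. The letters occur in 21.8% of all such stretches and in 11 of the 57 of member genes.

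Of the 7 feedback inhibitors compared, 1 was higher and 2 were lower in RA minus neuroepithelial (14.3% and 28.6%, beside 18.1% and 14.6% of all genes). In FGF8 minus neuroepithelial and in RA minus FGF8 1 was higher and 1 lower, or 28.6% either way beside 23.1% and 17.5%. Counts this small describe the genes named and no more. Sprouty proteins are membrane-bound inhibitors of RAS activation. SPRY1 read 366 in neuroepithelial cells, 131 in RA astrocytes and 137 in FGF8 astrocytes, so that both astrocyte cultures were low, 2.78-fold and 2.67-fold below neuroepithelial cells, with -0.06 between them. Its other probe set differed by -1.39 and -0.88, and with array medians set equal the FGF8 difference on the main one was -0.97. SPRY2 read 661, 1600 and 683. Here the RA culture alone was high, 2.42-fold above neuroepithelial cells and 2.35-fold above FGF8 astrocytes. These differences passed 2-fold in all 7 alternatives that apply to a gene. SPRY2 has 1 probe set and lay above every floor, so only the other scalings could change them. Those gave 1.38 and 1.79 on the log2 scale in RA minus neuroepithelial, and 1.21 and 1.26 in RA minus FGF8. SPRY4 read 62.6, 113 and 151, which was 2.41-fold higher in FGF8 astrocytes than in neuroepithelial cells, and at least 0.66 on the log2 scale with the floor at the 70th percentile, a bound that does not reach 2-fold.

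SPRED proteins act like Sproutys on RAS through neurofibromin. SPRED1 read 375, 381 and 398, with log2 differences of at most 0.08 on its main probe set. A second read 264, 270 and 183, and another read 65 in neuroepithelial cells and the floor in both astrocyte arrays, at least 2.46-fold lower. SPRED2 read 644, 344 and 659 on its main probe set. There the RA array was low, 1.87-fold below neuroepithelial cells and 1.91-fold below FGF8 astrocytes, inside the 2-fold limit. With array medians set equal RA minus FGF8 was -1.03. Another probe set read 51.2 in neuroepithelial cells and the floor in both astrocyte arrays, at least 1.94-fold lower. With the mean of all 3 probe sets RA and FGF8 astrocytes each differed from neuroepithelial cells by -0.65. SPRED3 read 50, 66.3 and 52.4, within 2-fold in every comparison. DUSP6, the phosphatase that removes the activating phosphates of the MAP kinase ERK and is a commonly read target of FGF signalling, read 417 in neuroepithelial cells, 165 in RA astrocytes and 397 in FGF8 astrocytes. The RA culture alone was low, 2.53-fold below neuroepithelial cells and 2.4-fold below FGF8 astrocytes, and the FGF8 culture differed from neuroepithelial cells by -0.07. Its other probe sets read 358, 199 and 328, and 177, 83.7 and 136, so that RA minus FGF8 was -0.72 and -0.70 on them and -0.89 with the mean of all 3. With array medians set equal RA minus neuroepithelial was -0.96.

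The 250 bases before the DUSP6 start are shown because DUSP6 is the inhibitor that separated the astrocyte cultures downward in RA, at chr12:89352502-89352751 on the minus strand of GRCh38.p14.
DUSP6: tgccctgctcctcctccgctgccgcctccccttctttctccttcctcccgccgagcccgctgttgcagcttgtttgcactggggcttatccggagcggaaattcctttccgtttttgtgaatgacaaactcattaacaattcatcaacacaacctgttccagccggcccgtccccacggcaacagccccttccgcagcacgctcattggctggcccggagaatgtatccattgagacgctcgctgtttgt
No capitals appear, since neither the ETS letters CCGGAAG, searched on both strands, nor the AP-1 or GC box letters occur in this window. Shorter or variant forms of these motifs were not searched. The ETS letters were found in 8.52% of all stretches and in 1 of the 57 of member genes, that of SPRY1.

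The ETV transcription factors are encoded by genes that FGF receptor signalling induces. ETV1 and ETV5 were both lower in RA than in FGF8 astrocytes. On the probe sets that stand for them, they differed in how they stood to neuroepithelial cells. ETV1 read 543 in neuroepithelial cells, 472 in RA astrocytes and 2340 in FGF8 astrocytes. Only the FGF8 culture was high, 4.32-fold above neuroepithelial cells, with RA astrocytes 4.96-fold below it, and 238 of 12959 genes lay further down in RA minus FGF8. All 5 ETV1 probe sets were above the floor on all 3 arrays. Each was lower in RA than in FGF8 astrocytes, from -0.84 to -2.31. Each was higher in FGF8 astrocytes than in neuroepithelial cells, from 0.31 to 2.11, with 2 of them past 2-fold. In RA minus neuroepithelial all 5 lay below 0, from -0.04 to -1.69. The lowest there, an _x_at type, read 147, 45.6 and 182, so on it the RA culture was low. ETV5 read 290, 82.4 and 232. Only the RA culture was low, 3.51-fold below neuroepithelial cells and 2.81-fold below FGF8 astrocytes, and both differences passed 2-fold in all 7 alternatives. On its 4 probe sets above the floor RA minus FGF8 ran from -0.79 to -1.79. ETV4 was at the floor on all 3 arrays. The cycling-cell marker TOP2A read 2330 in neuroepithelial cells, 210 in RA astrocytes and 1640 in FGF8 astrocytes, low in the same culture as DUSP6 and ETV5; the part of dividing cells in these differences was not tested.

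**Figure D3:**
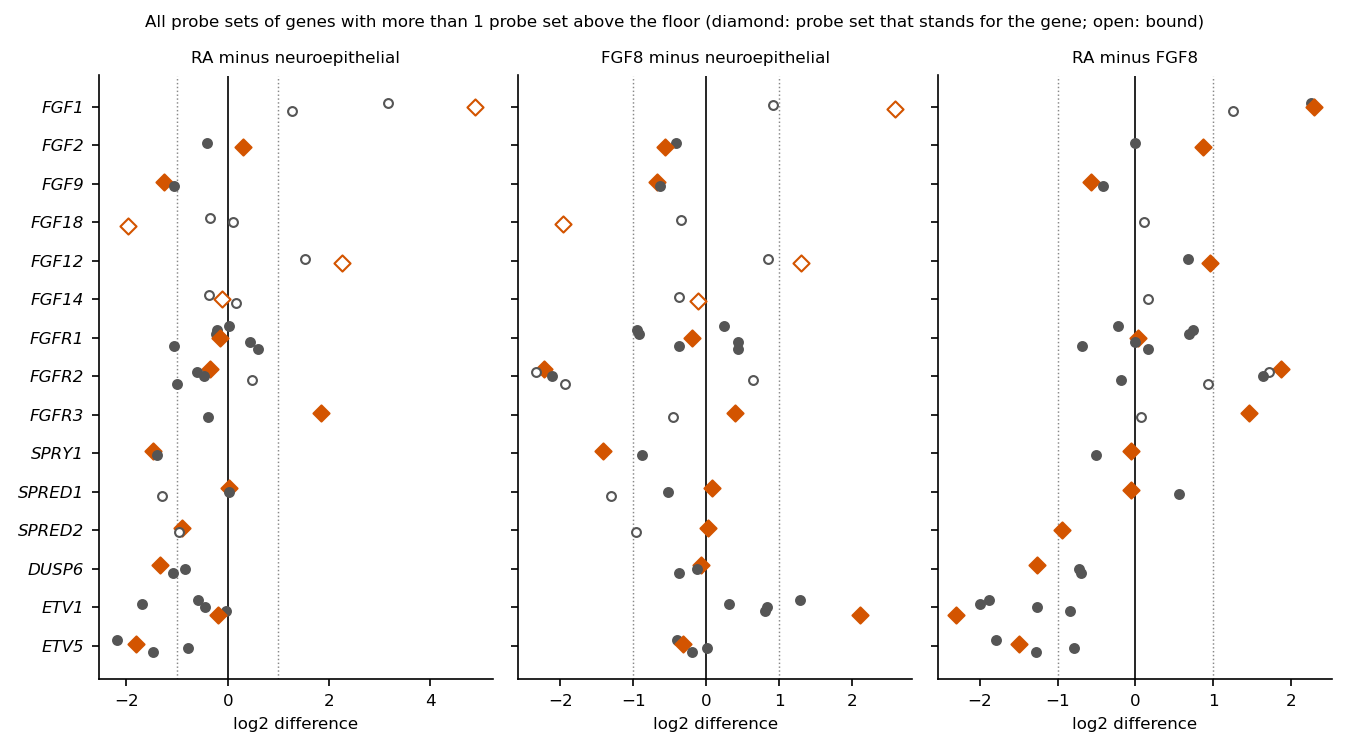
Log2 differences of every probe set above the floor, for the member genes that have more than 1, in the 3 comparisons; diamonds mark the probe set that stands for the gene, open symbols lower bounds and dotted lines 2-fold. The 5 probe sets of ETV1 and the 4 of ETV5 all lie below 0 in RA minus FGF8, while those of FGFR1 lie on either side of 0 in every comparison.

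Side by side, the genes with the largest differences between the astrocyte cultures were therefore FGF1, FGFR2, FGFR3, SPRY2 and FGF11, higher in RA, and ETV1, ETV5 and DUSP6, lower in RA. The differences of FGF1, SPRY2, FGFR3, ETV1 and ETV5 passed 2-fold under every alternative that gave a value, though for SPRY2 only the scalings could change it. FGFR2 did not without the less specific probe sets, and FGF11 and DUSP6 did not when probe sets were averaged. Where another probe set of a member past 2-fold could be compared, 15 of 16 had the same direction in RA minus FGF8, 9 of them also past 2-fold. In RA minus neuroepithelial 11 of 13 and in FGF8 minus neuroepithelial 11 of 12 did, with 8 and 4 past 2-fold. No probe set passed 2-fold in the opposite direction in any of the 3 comparisons.

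Other genes of FGF signalling were taken from a list of 57 that holds co-receptors and extracellular partners, heparan sulphate genes, adaptors and kinases, and induced genes; 50 of them were analysed here. In RA minus neuroepithelial 10 of 46 compared were higher and 11 lower (21.7% and 23.9%, beside 18.1% and 14.6% of all genes). In FGF8 minus neuroepithelial 8 were higher and 14 lower of 46 (17.4% and 30.4%, beside 12.8% and 10.2%). In RA minus FGF8 12 were higher and 3 lower of 44 (27.3% and 6.82%, beside 9.68% and 7.86%). The lower count there was 6 of 45 with the floor at the 30th percentile, beside 10.2% of all genes. Without a floor 14 were higher and 8 lower of 50, beside 18.4% and 16.1%. The first pair of medians, -0.09 and -0.31, turned to 0.25 and 0.11 with array medians set equal, where FGF8 minus neuroepithelial had 14 higher and 12 lower, beside 21.9% and 7.02% of all genes. The higher count in that comparison was 5 of 46 when probe sets were averaged, beside 10.4% of all genes. It was 5 of 37 without the less specific types, beside 13.3%.

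Of the heparan sulphate genes 8 of 17 were at least 2-fold higher in RA than in FGF8 astrocytes and 1 was lower, or 47.1% and 5.88% beside 9.68% and 7.86% of all genes. Their median was 0.99, beside 0.01 over all genes. With array medians set equal the counts were 7 and 1, beside 9.22% and 9.26% of all genes. When probe sets were averaged they were 5 and 1 of 15, beside 9.2% and 8.34%, with a median of 0.45. The lower count was 2 of 17 with the floor at the 30th percentile, beside 10.2% of all genes. With no floor it was 2 of 17, beside 16.1%, and without the less specific types 2 of 15, beside 8.03%. HS6ST2, which adds sulphate at the 6-O position of heparan sulphate, read 2310 in neuroepithelial cells, 1400 in RA astrocytes and 82.7 in FGF8 astrocytes. The FGF8 culture alone was low, 28-fold below neuroepithelial cells and 17-fold below RA astrocytes. SDC2, a transmembrane heparan sulphate proteoglycan, read 2850, 1850 and 393, again low in FGF8 astrocytes, and SULF2, an extracellular enzyme that removes 6-O sulphate, read 425, 340 and 95.3. GPC6, a lipid-anchored proteoglycan that astrocytes secrete, was the gene lower in RA, at 1160, 345 and 785. Both astrocyte cultures were high for GPC1, at 281, 2160 and 903, and SDC3, at 169, 1320 and 393, and low for GPC3, which read 1400 in neuroepithelial cells, 86.5 in RA astrocytes and the floor in FGF8 astrocytes.

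Among the partners of the receptors, FLRT3, a membrane protein that binds FGFR1 and enhances FGF signalling, read 1350, 1460 and 278, 5.24-fold higher in RA than in FGF8 astrocytes. FGFBP2 was at the floor in neuroepithelial cells, at 329 in RA and at 120 in FGF8 astrocytes. Of 11 adaptors and kinases 3 were higher in RA and 1 in FGF8 astrocytes than in neuroepithelial cells, and 0 were lower in either (27.3% and 9.09% higher, beside 18.1% and 12.8% of all genes). With array medians set equal 4 and 5 were higher, where the shares of all genes were 25.4% and 21.9%, and when probe sets were averaged 1 was higher and 1 lower in each. GAB1, a docking protein, had the largest difference, 5.22-fold in RA and 8.35-fold in FGF8 astrocytes.

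Genes that MAP kinase signalling can induce went separate ways. The immediate early genes FOS and EGR1 were higher in both astrocyte cultures, FOS by 26.1-fold in RA and 29.1-fold in FGF8 astrocytes, and EGR1 2.05-fold in RA and 4.54-fold in FGF8 astrocytes. DUSP4, a nuclear MAP kinase phosphatase, was lower in both, by 4.22-fold and 4.1-fold. CCND1, the G1 cyclin, read 1070 in neuroepithelial cells and the floor in both astrocyte arrays. MYC read 235 in neuroepithelial cells, 60.5 in RA astrocytes and 439 in FGF8 astrocytes, 7.26-fold lower in RA than in FGF8 astrocytes. IER3, an immediate early gene, went the other way at 1020, 385 and the floor, at least 14.6-fold higher in RA than in FGF8 astrocytes and at least 38.5-fold lower in FGF8 astrocytes than in neuroepithelial cells. SHISA2, which holds FGF receptors and Frizzled proteins in the endoplasmic reticulum, read 2630 in neuroepithelial cells, the floor in RA and 29.3 in FGF8 astrocytes.

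**Figure D4:**
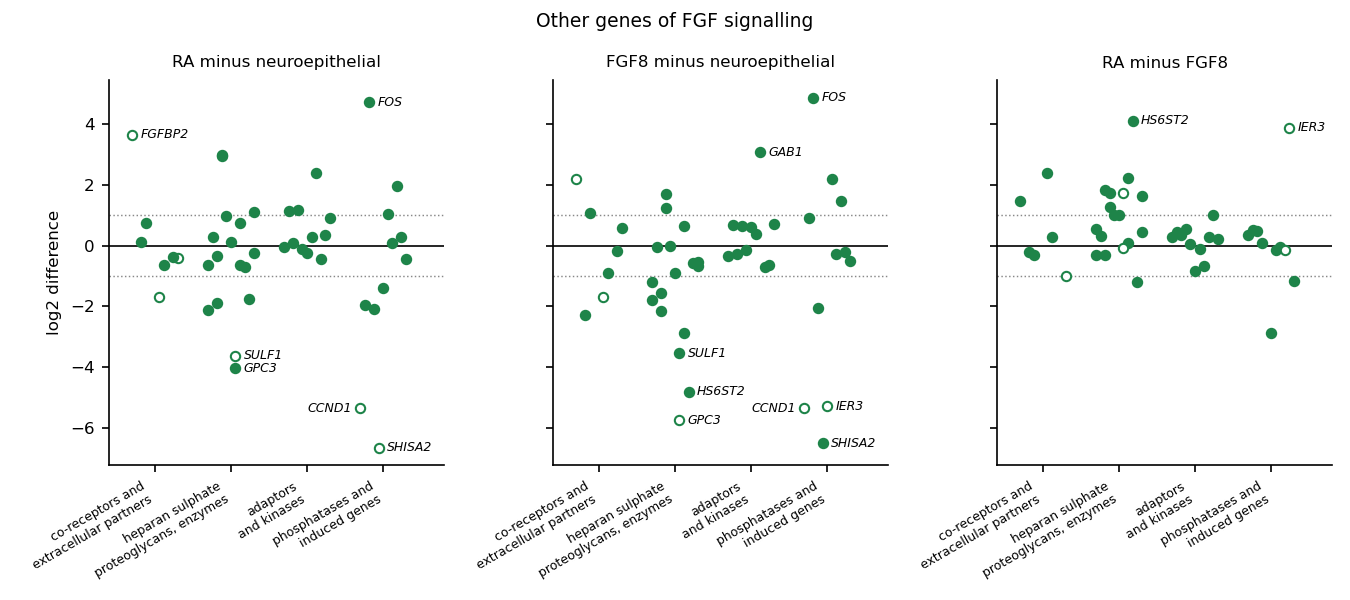
Log2 differences of the other FGF signalling genes by group in the 3 comparisons, 1 point per gene, with open points for lower bounds, dotted lines at 2-fold and names where a difference reached 8-fold. FOS stands at 4.71 and 4.86 above neuroepithelial cells, and HS6ST2 at 4.09 in RA minus FGF8.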

How the data were processed

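The authors deposited 1 intensity per probe set and array, on a linear scale. Trimmed of 2% of probe sets at either end, the mean was 150.02 on each array; the signal algorithm and software are not given in the sources used here. Per the labels' protocols, RNA was extracted with Trizol and a column and labelled with biotin by the array maker's procedure at a core facility. At the 75th percentile the arrays lay within 0.14 on the log2 scale. Intensities were quantile normalized over the 3 arrays and then brought to log2. A single gene symbol was listed for 41091 of 54613 probe sets other than controls, more than that for 1801 and none for 11721; only those with a single symbol were used. For each gene the brightest probe set by mean was taken, and _x_at types only where no other existed. With 1 array per group no test was possible and genes were counted by size. All members are named; those at least 2-fold different or above the floor on all 3 arrays are given with their signals. From the pathway list, genes named were among the 3 largest differences per group, direction and comparison. Members, lists and processing were chosen with earlier results of these data known. Promoter stretches came from RefSeq (GRCh38.p14), in which 27 of 37 members had an entry. The steps were tested on simulated data, made as noisy copies of 1 array. Changes were placed there only in genes well above the floor, so changes that start at the floor were not covered. Work was done in Python 3.11.15 with numpy 2.4.6 and pandas 2.3.3. Alternatives used the intensities as deposited or scaled to equal medians, placed the floor at the 30th or 70th percentile or removed it, averaged a gene's probe sets, left out _x_at and _s_at types, or counted at 1.5-fold and 4-fold. Marker lists for pluripotent cells and microglia were also read. Of 5 pluripotent markers 3 were analysed here, with 1 above the floor in neuroepithelial, 1 in RA and 2 in FGF8 cells. Their sums were 1380, 123 and 114 in that order. DPPA4 alone read 1350, 101 and 67.6, and NANOG was above the floor in FGF8 cells only, at 26.6. Of 6 microglia markers 0, 1 and 0 were above the floor. The part of these markers in the differences was not tested.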

Additional observations from a re-analysis of the deposited data

How the results depend on the processing

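Of 30 member differences past 2-fold, 13 stayed past it in the same direction under every alternative that gave a value, and 17 did not under at least 1. SPRY2 and FGF13 have 1 probe set each and lay above every floor, so only the scalings could change their values. The reversals were FGFR2 without the less specific probe sets, at 0.64 (a bound) in FGF8 minus neuroepithelial and -0.18 in RA minus FGF8, where a dim probe set stands for the gene. Counts that moved by over 1.5 times were as follows. In RA minus neuroepithelial (5 higher, 7 lower) the lower count was 11 of 31 with the lower floor, beside 16.3% of all genes. With no floor it was 13 of 37, beside 21.2%. The higher count was 3 of 20 when probe sets were averaged, beside 15.7%, and at 4-fold the counts were 3 and 2 of 23, beside 6.52% and 5.46%. In FGF8 minus neuroepithelial (5 and 5) the counts were 2 and 3 of 18 with the higher floor, beside 10.9% and 8.17% of all genes. With no floor they were 10 and 9 of 37, beside 20% and 17.7%. When probe sets were averaged they were 3 and 3 of 18, beside 10.4% each, and at 4-fold 2 and 3 of 22, beside 3.71% and 3.51%. The lower count was 3 of 18 without the less specific probe sets, beside 10%. In RA minus FGF8 (5 and 3) the counts were 8 and 9 of 37 with no floor, beside 18.4% and 16.1% of all genes. At 4-fold they were 1 and 1 of 19, beside 2.5% and 2.65%. The higher count was 3 of 15 without the less specific probe sets, beside 9.64%. Without a floor all 37 members entered each count, and over all genes 25.1% were higher and 21.2% lower in RA minus neuroepithelial. Fewer or dimmer values enter or leave with each floor by construction; the cause of the other changes was not tested. Equal array medians moved the count of all genes higher in FGF8 minus neuroepithelial from 1666 to 2853. The member medians moved by less than 1.5-fold in every alternative but lie near 0, and that of RA minus FGF8 was -0.06 with no floor and without the less specific probe sets. No paired analysis was possible because each group has 1 array. Signals near the floor carry the least precision, and no array has a replicate.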
